A study of Homo sapiens with 42 samples.

Results

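THZ1 and THZ531 were compared in HAP1 WT cells: 3 polyadenylated RNA libraries from cells given THZ1 and 3 from cells given THZ531, each for 24 h, chosen by their treatment and cell line labels out of the 42 libraries of the series. HAP1 is a near-haploid human line labelled as chronic myelogenous leukaemia, and WT means that its CDK7 is unaltered. The same comparison was made in a HAP1 line whose CDK7 carries the substitution C312S, a serine in place of the cysteine to which covalent inhibitors of CDK7 attach, and WT cells given DMSO served as the vehicle background. The series also holds cells given a further compound labelled YKL, alone or in a combination, in 14 groups of 3 libraries in all. The labels give no dose for THZ1 or THZ531, so the comparison is between these treatments as applied and not between matched doses. They also do not say whether replicate libraries stem from separate cultures, whether C312S is a single clone, or when libraries were made. The p-values below therefore speak of the spread among these libraries alone, and that spread may be technical.

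CDK7, with cyclin H and MNAT1, forms the CDK-activating kinase. It phosphorylates the cell cycle kinases, and within the general transcription factor TFIIH it phosphorylates the C-terminal domain of RNA polymerase II at the start of transcription. CDK12 and CDK13, each with cyclin K, phosphorylate the same domain during elongation, and CDK12 is known for sustaining long DNA repair genes. THZ1 is a covalent inhibitor of CDK7 that also acts on CDK12 and CDK13, and THZ531, a compound developed from THZ1, is a covalent inhibitor of CDK12 and CDK13.

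Values are FPKM as the authors deposited them (fragments scaled to transcript length and between libraries), so a value is a relative level. The median gene differed by only -0.005 between THZ1 and THZ531, so changes are relative to the median gene. Changes were tested with limma on log2(FPKM + 1), are given as THZ1 minus THZ531, and were called at a Benjamini-Hochberg adjusted p under 0.05 over the 12816 genes tested. The log2(FPKM + 1) scale understates the change of low genes. Summed over genes, FPKM were 628300 ± 10400 with THZ1 and 530400 ± 4730 with THZ531 (SD, n = 3, as for all group values). Total reads per library are not given in the file. Judged by the smallest steps of low values, 1 fragment was worth 2.31, 1.90 and 1.53 times as much FPKM in the THZ1 libraries as in replicate 1 of THZ531, and 0.246 and 1.03 times as much in replicates 2 and 3 of THZ531. Replicate 2 of THZ531 was thus the deepest of the 6 and the THZ1 libraries the shallowest. Across genes, libraries of a group correlated at r between 0.9708 and 0.9763 with THZ1 and between 0.9739 and 0.9772 with THZ531, and 0 pairs held identical values. Markers of the labelled leukaemia were mixed. The leukocyte gene PTPRC (CD45) was at 0.0223 FPKM with THZ1 and 0.00544 FPKM with THZ531, and SPI1 and GATA1 were listed at 0 in both, a value that can also be a failed estimate in this table. Other blood genes had higher levels, among them GATA2 (25.1 FPKM with THZ1 and 13.6 FPKM with THZ531), HBA1 (10.3 FPKM with THZ1 and 7.91 FPKM with THZ531) and TAL1 (2.33 FPKM with THZ1 and 2.68 FPKM with THZ531). Of epithelial and fibroblast markers, CDH1 and EPCAM were at or near 0, KRT18 averaged 35.8 FPKM with THZ1 and 32.9 FPKM with THZ531, and VIM 501 FPKM with THZ1 and 382 FPKM with THZ531.

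The ERCC spike-in rows, synthetic RNAs that accompany the genes in the table, stood far higher against the genes with THZ1 than with THZ531. Taken as the median log2 ratio of the ERCC rows to their mean library, less the same median over genes, the spike-in level was 1.82, 1.83 and 1.80 in the THZ1 libraries, against -0.86, -0.66 and -0.57 in the THZ531 libraries and -0.54, -0.64 and -0.69 in the DMSO libraries. The THZ1 libraries lay apart from both other groups, whereas the THZ531 and DMSO libraries overlapped. THZ1 exceeded THZ531 by 2.51 log2 units, or 5.71-fold, with a two-sided exact permutation p of 0.1, the smallest that 3 against 3 allows (0.133 adjusted over 4 comparisons). The labels do not say when spike-ins were added or how much, and a lower RNA yield per cell, fewer cells and a different amount of spike-in cannot be told apart. Scaling by the spike-ins moves the median gene by -2.05 log2 units, and scaling to equal summed FPKM moves it by -0.20. Every rise or fall below is of deposited FPKM, relative to the other genes. For the differences between the compounds in WT, the value after spike-in scaling stands beside those whose direction flips.

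**Figure D1:**
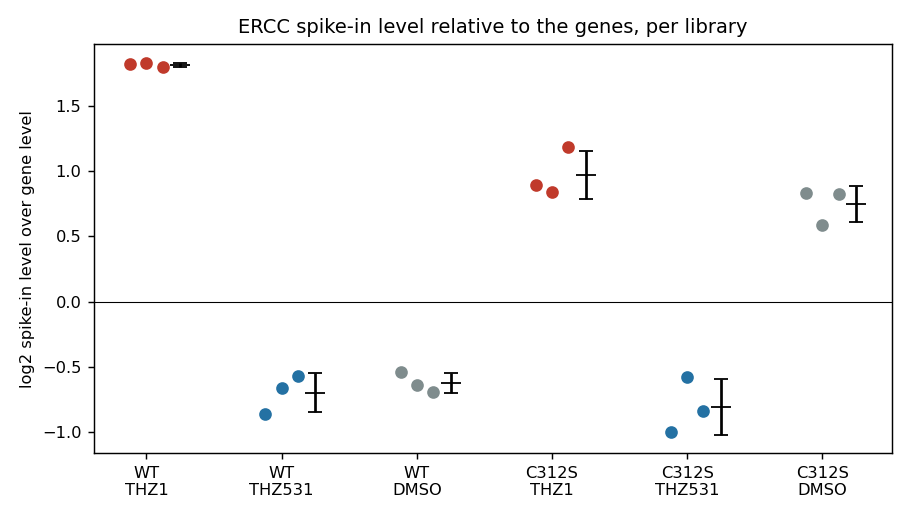
The plot of spike-in level by library shows the level of the ERCC rows relative to the genes (vertical axis, log2 units) for each library of WT and C312S cells given THZ1, THZ531 or DMSO, with the mean and SD of 3 libraries beside the points. WT THZ1 libraries sit at 1.80 to 1.83, above all others, and WT THZ531 libraries sit at -0.86 to -0.57, overlapping the WT DMSO libraries (-0.69 to -0.54), whereas the C312S DMSO libraries sit at 0.59 to 0.83, near those of C312S THZ1.

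Of the 12816 genes tested, 7840 (61.2%) differed between THZ1 and THZ531. Of these, 3913 were higher with THZ1 (30.5% of genes tested) and 3927 were lower (30.6%). Most changes were small. At least 2-fold on this scale, 175 genes were higher with THZ1 (1.37%) and 53 were lower (0.414%). The 3 libraries of THZ1 lay entirely above or entirely below those of THZ531 for 8403 genes (65.6%), above for 32.6% of the genes tested and below for 32.9%. The split depends on the scaling. The median gene lay at -0.005 as deposited and at 0.0008 with median-ratio scaling. A near-even split is thus built into both settings and says nothing about the compounds. The share of calls that were higher with THZ1 was 49.9% as deposited, 51.4% with median-ratio scaling, 22.5% with equal summed FPKM and 0.12% with spike-in scaling, where 15 of 12460 calls were higher. A gene called here is thus in the majority, and counts within a gene list are to be read against 30.5% higher and 30.6% lower.

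**Figure D2:**
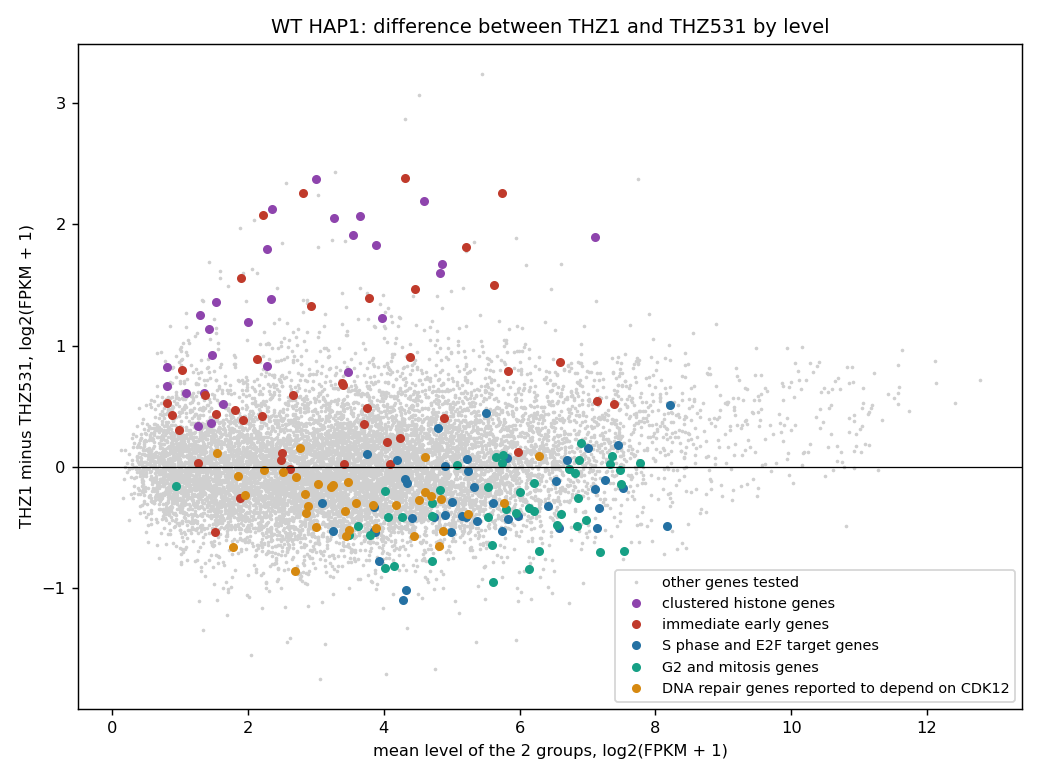
Each point in the plot of difference by level is a tested gene, with the mean level of both groups on the horizontal axis and THZ1 minus THZ531 on the vertical axis, both in log2(FPKM + 1) as deposited. Coloured points are members of 5 gene lists, and 335 tested rows, of short RNAs or with a value of exactly 0 in any of the 6 libraries, are left out. Clustered histone and immediate early genes reach above 2, whereas cell cycle and DNA repair genes lie mostly below 0, and after spike-in scaling the median of each of these lists is below 0.

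Clustered histone genes were among the most strongly raised with THZ1. They encode the core and linker histones. Most of their messages end in a stem-loop and not in a poly(A) tail, so libraries selected for poly(A) hold only the polyadenylated forms. Of 73 in the table, 37 passed the filter on low values. Of the 37, 27 were higher with THZ1 and 0 were lower, and their median difference was 1.14. With spike-in scaling their median was -0.39, with 0 called higher and 14 lower, where the median of all genes was -2.05. Many of the 37 were low, where log2(FPKM + 1) understates a change, so their median is not directly comparable with that of all genes. These genes have near-identical copies, and how reads were split between them is not given, so single values are uncertain. Also, 10 of the 37 held an exact 0 in 1 or more of the 6 libraries. The promoters of 3 H2B genes are shown because they hold the octamer ATTTGCAT, the element known from H2B promoters that POU2F1 (OCT1) binds. Each is the 250 bases before the start in RefSeq on GRCh38.p14, 5′ to 3′ on the gene's strand, with the octamer (its reverse complement ATGCAAAT in HIST1H2BO) in capitals: HIST1H2BK at chr6:27146859-27147108 (minus strand), HIST2H2BE at chr1:149886683-149886932 (minus strand) and HIST1H2BO at chr6:27893175-27893424 (plus strand).
HIST1H2BK: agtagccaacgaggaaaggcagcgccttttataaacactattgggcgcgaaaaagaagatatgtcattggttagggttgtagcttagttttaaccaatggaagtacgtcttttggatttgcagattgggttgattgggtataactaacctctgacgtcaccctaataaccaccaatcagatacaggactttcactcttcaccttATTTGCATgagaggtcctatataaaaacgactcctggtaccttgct
HIST2H2BE: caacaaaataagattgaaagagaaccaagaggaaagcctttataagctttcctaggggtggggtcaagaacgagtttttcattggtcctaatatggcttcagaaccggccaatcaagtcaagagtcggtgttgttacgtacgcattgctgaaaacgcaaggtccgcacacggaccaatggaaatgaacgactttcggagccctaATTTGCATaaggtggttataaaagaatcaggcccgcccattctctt
HIST1H2BO: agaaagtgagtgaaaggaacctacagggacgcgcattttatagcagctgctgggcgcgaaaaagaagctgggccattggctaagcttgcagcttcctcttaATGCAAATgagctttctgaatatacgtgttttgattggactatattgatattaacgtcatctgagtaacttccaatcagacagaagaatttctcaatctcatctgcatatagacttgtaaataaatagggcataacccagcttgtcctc

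The octamer starts 46 bases before the start of transcription in HIST1H2BK and HIST2H2BE and 149 bases before it in HIST1H2BO, and overlaps no other motif searched. ATTTGCAT, on either strand, occurs in 454 of 27305 promoters of this length (1.66%). RefSeq symbols matched only 8 of the 13 tested H2B genes, too few for a share over the list, and 5 of the 8 held the octamer. It was also found in 7 of 20 other clustered histone genes with a promoter, mostly H2A genes. Whether these windows overlap the promoter of a neighbouring H2B gene was not tested. The match is a description of these letters and does not show binding.

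HIST1H2BK had 222, 216 and 215 FPKM with THZ1, against 65.9, 53.7 and 54.1 FPKM with THZ531 and a mean of 18.7 FPKM with DMSO. The difference was 1.90 ± 0.08 (SE; limma adjusted p 3.38e-19), or -0.58 after scaling by the spike-ins. HIST2H2BE had 19.4, 19.4 and 19.0 FPKM with THZ1, against 3.96, 3.44 and 4.12 FPKM with THZ531 and a mean of 1.39 FPKM with DMSO, a difference of 2.07 ± 0.08 (-0.15 with spike-in scaling). For both genes the groups were far apart, and the THZ531 libraries lay above the DMSO mean. HIST1H2BO had 12.95, 10.2 and 14.1 FPKM with THZ1, against 1.40, 1.67 and 1.65 FPKM with THZ531. Its difference was 2.37 ± 0.20 (limma adjusted p 9.37e-12) and stayed above 0 with spike-in scaling, at 0.35, where it was not called (adjusted p 0.0722). HIST1H2AC, an H2A gene, averaged 41.5 ± 2.71 FPKM with THZ1 and 13.0 ± 1.06 FPKM with THZ531, a difference of 1.60 ± 0.11 (-0.78 with spike-in scaling).

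Immediate early genes, which encode transcription factors and signalling proteins whose short-lived messages respond first to a stimulus, were mostly higher with THZ1. Of 45 listed, 42 were tested, 34 were higher and 2 were lower, with a median difference of 0.52 (-1.38 with spike-in scaling). IER3, an early response gene that acts on cell survival, had 29.6, 33.4 and 34.2 FPKM with THZ1, against 5.47, 5.27 and 5.50 FPKM with THZ531 and a mean of 4.38 FPKM with DMSO. Its difference of 2.38 ± 0.10 (limma adjusted p 1.85e-18) was 0.07 with spike-in scaling, where it was not called (adjusted p 0.617). ID2, an inhibitor of basic helix-loop-helix factors, had 90.8, 85.8 and 84.6 FPKM with THZ1, against 17.5, 16.9 and 17.7 FPKM with THZ531, a difference of 2.26 ± 0.08 (-0.17 with spike-in scaling). The THZ1 libraries lay far above the others for both genes. KLF10, a zinc finger factor induced by TGF-beta, averaged 18.8 ± 0.628 FPKM with THZ1 and 6.55 ± 0.153 FPKM with THZ531 (1.39 ± 0.05, and -0.87 with spike-in scaling). MYC, the growth-promoting transcription factor, had 194, 198 and 197 FPKM with THZ1, against 139.7, 135 and 135 FPKM with THZ531 and a mean of 134 FPKM with DMSO. The groups did not overlap, and the difference of 0.52 ± 0.05 (limma adjusted p 6.59e-10) became -1.96 with spike-in scaling. ATF3, a stress-induced early factor, averaged 26.3 ± 0.257 FPKM with THZ1 and 13.6 ± 0.410 FPKM with THZ531, a difference of 0.90 ± 0.06 (-1.44 with spike-in scaling).

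Targets of YAP and SRF, the factors that respond to cell shape and actin, were higher with THZ1 in 27 of 34 tested (38 listed) and lower in 0, with a median difference of 0.46 (-1.92 with spike-in scaling). CTGF, a matricellular protein that YAP induces, had 69.5, 74.0 and 72.5 FPKM with THZ1, against 23.7, 23.7 and 26.9 FPKM with THZ531 and a mean of 16.1 FPKM with DMSO, with no overlap. Its difference was 1.50 ± 0.06 (limma adjusted p 7.15e-20; -0.93 with spike-in scaling). CYR61, a related matrix protein, averaged 71.1 ± 2.47 FPKM with THZ1 and 40.7 ± 1.17 FPKM with THZ531, a difference of 0.79 ± 0.05 (-1.65 with spike-in scaling). Both genes are also on the immediate early list. Promoters of FLNA and FHL2 are shown for the CArG box, the element SRF binds, here in capitals; these genes were chosen after their values were seen. FLNA, which encodes the actin crosslinker filamin A, lies at chrX:154374635-154374884 and FHL2, which encodes a cofactor of SRF, at chr2:105438514-105438763, both windows of 250 bases on the minus strand of GRCh38.p14 from RefSeq.
FLNA: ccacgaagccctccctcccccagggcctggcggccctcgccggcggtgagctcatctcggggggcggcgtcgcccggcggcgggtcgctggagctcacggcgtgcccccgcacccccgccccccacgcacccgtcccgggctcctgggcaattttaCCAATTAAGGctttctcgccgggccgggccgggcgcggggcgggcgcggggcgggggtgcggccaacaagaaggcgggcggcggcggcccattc
FHL2: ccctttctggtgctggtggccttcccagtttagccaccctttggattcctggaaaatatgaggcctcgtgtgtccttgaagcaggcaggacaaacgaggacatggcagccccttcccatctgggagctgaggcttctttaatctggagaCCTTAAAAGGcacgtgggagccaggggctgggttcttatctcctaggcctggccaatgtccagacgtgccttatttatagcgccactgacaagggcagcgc

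The CArG box starts 94 bases before the start in FLNA and 101 bases before it in FHL2. The motif, searched on both strands, was found in 7 of the 29 list members with a promoter (24.1%). It was found in 1.14% of the 27305 promoters overall and in 0.989% of the promoters of genes tested. The list holds targets of SRF, which binds this element, so a higher share is built into it. That share says nothing about the differences between the compounds. FLNA averaged 335 FPKM with THZ1 and 161 FPKM with THZ531 (1.05 ± 0.08), and FHL2 averaged 38.6 FPKM with THZ1 and 25.3 FPKM with THZ531 (0.59 ± 0.06), and with spike-in scaling these differences were -1.43 and -1.80. The match is again of letters alone.

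**Figure D3:**
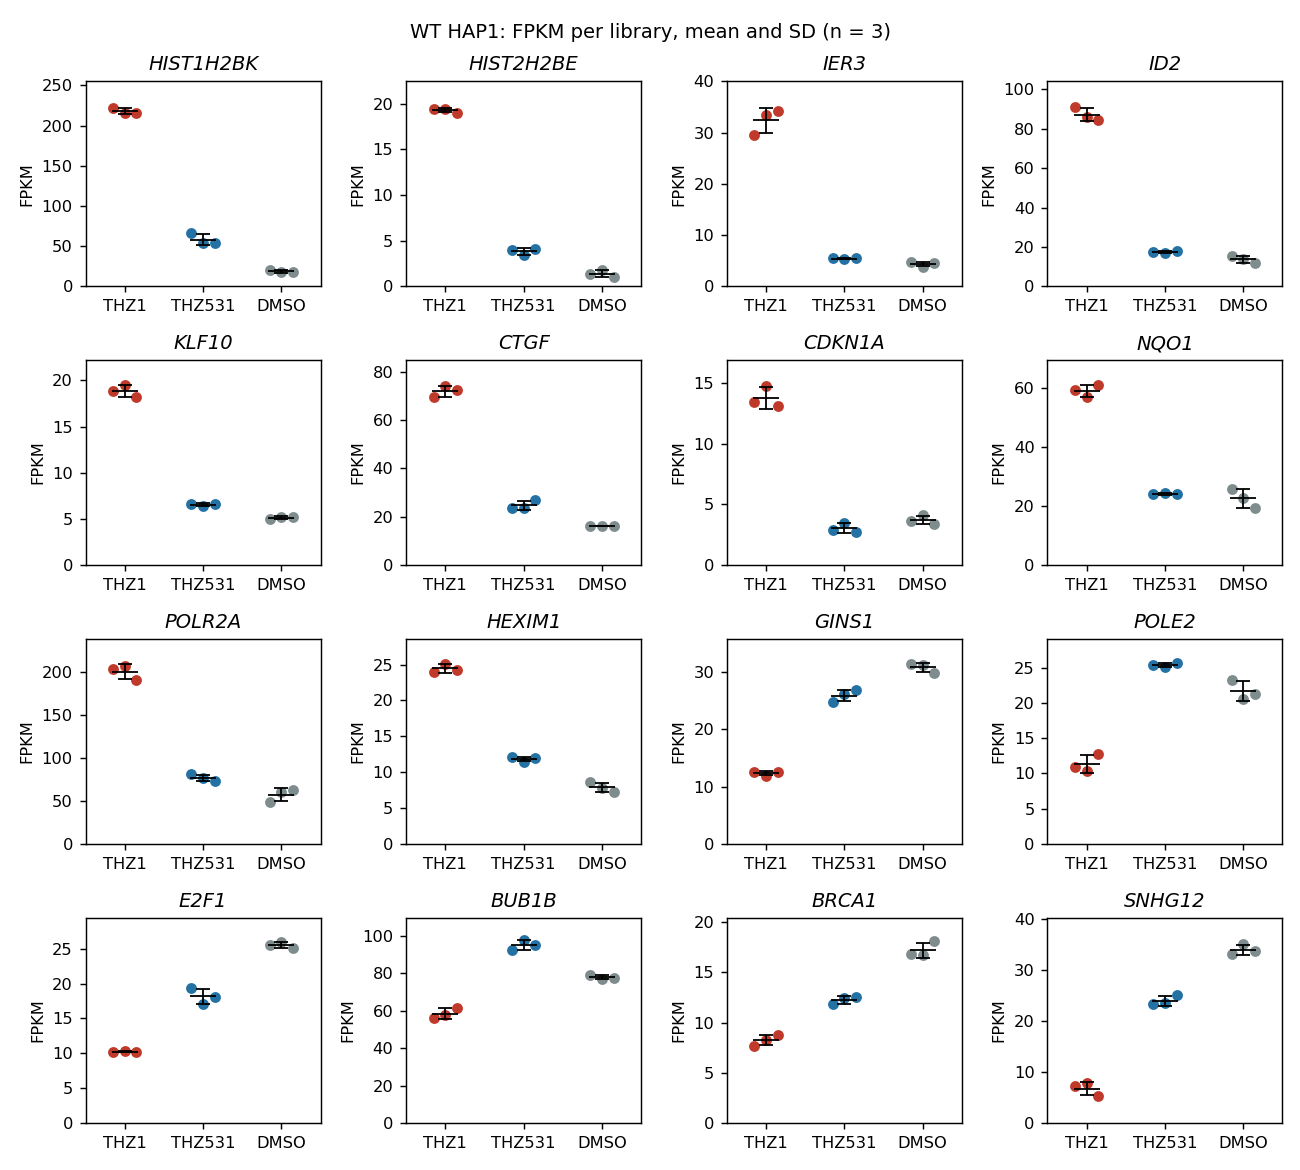
Each panel of the plot of genes by library shows FPKM (vertical axis, from 0) in the 3 WT libraries given THZ1, THZ531 or DMSO, with mean and SD, for 16 named genes. In every panel the THZ1 libraries lie apart from the THZ531 libraries, above them in the first 10 panels, HIST1H2BK to HEXIM1, and below them in the last 6, GINS1 to SNHG12. After spike-in scaling all 10 of the first differences except that of IER3 are below 0.

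Cell cycle genes were mostly lower with THZ1. Of 44 genes of S phase and E2F targets, 30 were lower and 6 were higher, with a median difference of -0.31, and of 45 genes of G2 and mitosis, 32 were lower and 1 was higher, with a median of -0.35. GINS1, a subunit of the replicative helicase, had 12.6, 11.9 and 12.5 FPKM with THZ1, against 24.8, 26.1 and 26.8 FPKM with THZ531 and a mean of 30.8 FPKM with DMSO (-1.01 ± 0.05, limma adjusted p 4.31e-17). POLE2, a subunit of DNA polymerase epsilon, averaged 11.4 ± 1.27 FPKM with THZ1 and 25.4 ± 0.260 FPKM with THZ531, a difference of -1.10 ± 0.08. E2F1, the factor that switches on S phase genes, had 10.2, 10.3 and 10.2 FPKM with THZ1, against 19.3, 17.1 and 18.1 FPKM with THZ531 and a mean of 25.6 FPKM with DMSO, a difference of -0.77 ± 0.07 (limma adjusted p 4.33e-11). All 3 genes separated the compounds without overlap. TYMS, the thymidylate synthase on the same list, was higher and averaged 347 ± 1.08 FPKM with THZ1 and 243 ± 4.48 FPKM with THZ531 (0.52 ± 0.03; -1.97 with spike-in scaling).

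Among mitotic genes, BUB1B, a spindle checkpoint kinase, had 55.9, 57.6 and 61.6 FPKM with THZ1, against 92.3, 97.8 and 95.2 FPKM with THZ531 and a mean of 78.0 FPKM with DMSO. The THZ1 libraries lay below the DMSO mean and the THZ531 libraries above it, and the difference was -0.70 ± 0.04 (limma adjusted p 1.39e-16). PLK4, the kinase of centriole duplication, averaged 10.6 ± 0.255 FPKM with THZ1 and 19.6 ± 0.201 FPKM with THZ531, a difference of -0.83 ± 0.06. KIF23, a motor of cytokinesis, was the exception, with 127 ± 6.24 FPKM with THZ1 and 111 ± 5.02 FPKM with THZ531. Its difference of 0.20 ± 0.04 became -0.05 with equal summed FPKM and -2.27 with spike-in scaling.

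Repair genes that have been reported to need CDK12 were lower with THZ1 than with THZ531 in 25 of 35 tested and higher in 0, with a median difference of -0.27. Set against DMSO, their median was -0.24 with THZ1 and 0.05 with THZ531. XRCC2, a factor of homologous recombination, averaged 3.57 ± 0.222 FPKM with THZ1 and 7.27 ± 0.239 FPKM with THZ531 (-0.86 ± 0.08). BRCA1, which acts in the same repair pathway, had 7.71, 8.28 and 8.74 FPKM with THZ1, against 11.8, 12.4 and 12.6 FPKM with THZ531 and a mean of 17.2 FPKM with DMSO (-0.52 ± 0.05). For neither gene did the groups overlap. BRCA1 was below DMSO with either compound (-0.98 with THZ1 and -0.46 with THZ531).

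Targets of p53 were divided, with 14 higher and 7 lower of 29 tested (32 listed) and a median of 0.11 (-0.11 with equal summed FPKM and -1.90 with spike-in scaling). CDKN1A, the cell cycle inhibitor p21, had 13.4, 14.8 and 13.1 FPKM with THZ1, against 2.89, 3.49 and 2.74 FPKM with THZ531 and a mean of 3.72 FPKM with DMSO. The THZ1 libraries lay far above the rest, a difference of 1.87 ± 0.10 (limma adjusted p 9.65e-17; -0.26 with spike-in scaling). FDXR, a mitochondrial reductase, averaged 30.3 ± 2.01 FPKM with THZ1 and 10.8 ± 1.06 FPKM with THZ531 (1.41 ± 0.07; -0.93 with spike-in scaling). MDM2, the ubiquitin ligase that restrains p53, went the other way, at 10.8 ± 0.539 FPKM with THZ1 and 17.2 ± 1.28 FPKM with THZ531, a difference of -0.63 ± 0.05, and AEN, an apoptosis-linked nuclease, differed by -0.36 ± 0.05.

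Among 25 tested genes of the BCL2 family and cell death, 5 were higher and 7 lower, with a median of 0.00 (-0.20 with equal summed FPKM and -2.29 with spike-in scaling). BCL2L1, which encodes the survival factor BCL-XL, averaged 52.6 ± 0.667 FPKM with THZ1 and 38.8 ± 0.629 FPKM with THZ531 (0.43 ± 0.04; -1.99 with spike-in scaling). CASP8, the initiator caspase of death receptors, averaged 13.7 ± 0.755 FPKM with THZ1 and 10.2 ± 0.586 FPKM with THZ531 (0.39 ± 0.08; -1.83 with spike-in scaling, and 0.17 with equal summed FPKM, where it was not called at an adjusted p of 0.0517). BID, which links caspase 8 to mitochondria, and CFLAR, which blocks caspase 8, were lower, with differences of -0.48 ± 0.05 and -0.50 ± 0.08. MCL1, a short-lived survival factor, had 63.0, 63.8 and 66.7 FPKM with THZ1, against 60.3, 59.0 and 58.2 FPKM with THZ531 and a mean of 56.5 FPKM with DMSO. Its groups did not overlap, but the difference was only 0.12 ± 0.05 (limma adjusted p 0.0325), became -0.12 with equal summed FPKM and -2.32 with spike-in scaling, and lost its call without replicate 3 of THZ1 (adjusted p 0.128) or replicate 2 (0.0683) or 3 (0.0927) of THZ531.

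The messages of the targeted kinases themselves differed little. Genes of the CDK-activating kinase and TFIIH were lower in 4 of 10 and higher in 0, with a median of -0.09. CDK7 had 35.1, 31.8 and 35.8 FPKM with THZ1, against 42.7, 43.7 and 44.7 FPKM with THZ531 and a mean of 38.2 FPKM with DMSO, a difference of -0.35 ± 0.06 (limma adjusted p 2.62e-06). GTF2H3, a TFIIH subunit, averaged 17.0 ± 0.222 FPKM with THZ1 and 24.4 ± 0.575 FPKM with THZ531 (-0.50 ± 0.05). CDK12 had 23.8, 23.9 and 24.3 FPKM with THZ1, against 27.0, 28.5 and 26.2 FPKM with THZ531, a difference of -0.18 ± 0.06 (limma adjusted p 0.00745, and 0.0504 without replicate 2 of THZ531). CDK13 had 12.4, 13.5 and 13.5 FPKM with THZ1, against 11.8, 12.3 and 11.1 FPKM with THZ531. Its difference of 0.15 ± 0.06 (limma adjusted p 0.0226) became -0.07 with equal summed FPKM and -2.07 with spike-in scaling, and lost its call without replicate 2 (adjusted p 0.0819) or 3 (0.0739) of THZ1 or replicate 3 of THZ531 (0.118). CCNK, the cyclin of CDK12 and CDK13, overlapped between the compounds, at 40.4, 42.9 and 44.4 FPKM with THZ1 and 42.7, 40.6 and 41.1 FPKM with THZ531, a difference of 0.04 with a 95% interval of -0.06 to 0.14 (-2.37 with spike-in scaling).

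Of 37 genes for transcriptional kinases and elongation factors, 17 were higher and 9 lower, with a median of 0.05 (-0.18 with equal summed FPKM and -2.10 with spike-in scaling). HEXIM1, which holds the elongation kinase CDK9 inactive, had 24.0, 25.1 and 24.3 FPKM with THZ1, against 12.1, 11.5 and 12.01 FPKM with THZ531 and a mean of 7.90 FPKM with DMSO. Its difference was 0.99 ± 0.05 (limma adjusted p 1.07e-17; -1.34 with spike-in scaling), and the order THZ1, THZ531, DMSO held without overlap of the compounds. BRD2, a reader of acetylated histones, averaged 154 ± 4.31 FPKM with THZ1 and 86.1 ± 1.33 FPKM with THZ531 (0.83 ± 0.03; -1.64 with spike-in scaling). LARP7, which stabilises 7SK RNA, and RTF1, of the PAF complex, were lower, with differences of -0.59 ± 0.06 and -0.40 ± 0.04.

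RNA polymerase II and related genes were higher in 9 of 17 and lower in 4, with a median of 0.22 (-0.03 with equal summed FPKM and -2.19 with spike-in scaling). POLR2A, the largest subunit and bearer of the C-terminal domain, had 203, 207 and 190.5 FPKM with THZ1, against 80.9, 76.1 and 73.2 FPKM with THZ531 and a mean of 57.5 FPKM with DMSO. The difference was 1.37 ± 0.08 (limma adjusted p 6.48e-16; -1.11 with spike-in scaling), with the groups far apart. POLR2G, a subunit of the stalk, was low with THZ531: it had 109.7, 104 and 116 FPKM with THZ1, against 64.6, 69.6 and 70.6 FPKM with THZ531 and a mean of 115 FPKM with DMSO (0.68 ± 0.07; -1.78 with spike-in scaling). POLR2H, a further subunit, and SSU72, a phosphatase of the C-terminal domain, were lower with THZ1, by differences of -0.52 ± 0.06 and -0.50 ± 0.05.

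Genes for the processing of messages were lower more often than higher. Of 22 cleavage and polyadenylation factors, 11 were lower and 4 higher (median -0.10). CPSF2, a subunit of the cleavage complex, averaged 18.8 ± 0.511 FPKM with THZ1 and 28.2 ± 1.39 FPKM with THZ531 (-0.56 ± 0.06), and CPSF7 differed by -0.41 ± 0.04. CLP1 (0.44 ± 0.06) and PPP1CA (0.42 ± 0.05) were higher, and with spike-in scaling they stood at -1.93 and -2.06. Of 19 genes of SR splicing factors and their kinases, 11 were lower and 4 higher (median -0.31). SRSF1, the founding SR protein, had 66.3, 65.4 and 63.8 FPKM with THZ1, against 114, 109.6 and 112 FPKM with THZ531 and a mean of 129.7 FPKM with DMSO, with no overlap (-0.77 ± 0.05, limma adjusted p 5.20e-15). SRPK1, a kinase of SR proteins, differed by -0.68 ± 0.04. SRSF9 (0.20 ± 0.04) and SRSF4 (0.12 ± 0.03) were higher, and with equal summed FPKM they stood at -0.04 and -0.12 and with spike-in scaling at -2.29 and -2.32.

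Host genes of small nucleolar RNAs, most of which are spliced transcripts valued for the RNA in their introns, spread widely. Of 25 tested, 10 were lower and 5 higher with THZ1 (median -0.16). SNHG12 had 7.22, 7.77 and 5.22 FPKM with THZ1, against 23.3, 23.5 and 25.1 FPKM with THZ531 and a mean of 33.9 FPKM with DMSO (-1.70 ± 0.09, limma adjusted p 5.36e-17). SNHG16 averaged 27.7 ± 1.46 FPKM with THZ1 and 60.0 ± 2.89 FPKM with THZ531 (-1.09 ± 0.06). In contrast, SNHG9 averaged 514 ± 16.3 FPKM with THZ1 and 239 ± 24.8 FPKM with THZ531 (1.11 ± 0.11; -1.39 with spike-in scaling), and SNHG15 71.3 ± 1.42 FPKM with THZ1 and 35.3 ± 1.65 FPKM with THZ531 (0.99 ± 0.10; -1.44 with spike-in scaling).

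Targets of NRF2, the factor of the oxidative stress response, were higher in 19 of 27 tested and lower in 4 (median 0.40; -2.05 with spike-in scaling). NQO1, a quinone reductase, had 59.3, 57.1 and 61.2 FPKM with THZ1, against 24.0, 24.6 and 24.1 FPKM with THZ531 and a mean of 22.7 FPKM with DMSO (1.25 ± 0.06, limma adjusted p 6.56e-18; -1.17 with spike-in scaling). FTL, the light chain of ferritin, averaged 1305 ± 28.8 FPKM with THZ1 and 662 ± 10.1 FPKM with THZ531 (0.98 ± 0.05; -1.52 with spike-in scaling). NFE2L2, which encodes NRF2 itself, and the drug exporter ABCC1 were lower, by differences of -0.33 ± 0.05 and -0.20 ± 0.06.

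Heat shock genes were higher in 13 of 23 and lower in 6 (median 0.14; -0.11 with equal summed FPKM and -2.32 with spike-in scaling). HSPA1A, the inducible HSP70, averaged 35.0 ± 2.31 FPKM with THZ1 and 16.9 ± 1.38 FPKM with THZ531 (1.01 ± 0.10; -1.37 with spike-in scaling); it has a near-identical copy, so its value is uncertain. BAG3, its cofactor, had 41.0, 40.7 and 40.5 FPKM with THZ1, against 21.6, 20.7 and 20.0 FPKM with THZ531 (0.94 ± 0.07; -1.45 with spike-in scaling). HSPA8, the constitutive HSP70, averaged 1493 ± 28.3 FPKM with THZ1 and 2095 ± 65.3 FPKM with THZ531 (-0.49 ± 0.04), and HSPE1, the mitochondrial co-chaperonin, differed by -0.37 ± 0.06. The integrated stress response list had 12 higher and 17 lower of 38 tested (median -0.12). On it SLC3A2, an amino acid transporter subunit, was higher (0.77 ± 0.05; -1.71 with spike-in scaling), and AARS, the alanyl-tRNA synthetase, and the factor ATF5 were lower (-0.62 ± 0.04 and -0.62 ± 0.06).

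Genes of protein and energy supply were higher as a group. Cytosolic ribosomal protein genes were higher in 61 of 84 and lower in 3 (median 0.39; -2.09 with spike-in scaling). RPLP2 averaged 3007 ± 32.9 FPKM with THZ1 and 1756 ± 74.4 FPKM with THZ531 (0.78 ± 0.05; -1.72 with spike-in scaling), and RPS19 2306 ± 35.0 FPKM with THZ1 and 1302 ± 34.8 FPKM with THZ531 (0.82 ± 0.06; -1.68 with spike-in scaling). The paralogues RPL22L1 (-1.44 ± 0.09) and RPL7L1 (-0.86 ± 0.07) were lower. Ribosomal protein genes have many processed copies, so their values are uncertain. Nuclear genes of oxidative phosphorylation were higher in 57 of 80 and lower in 5 (median 0.37; -2.10 with spike-in scaling). ATP5B, a subunit of ATP synthase, had 1695, 1691 and 1727 FPKM with THZ1, against 942, 959 and 977 FPKM with THZ531 (0.83 ± 0.04; -1.67 with spike-in scaling). COX6C, of cytochrome oxidase, averaged 213 ± 9.51 FPKM with THZ1 and 114 ± 5.76 FPKM with THZ531 (0.90 ± 0.06; -1.58 with spike-in scaling), whereas ATP5G2 and NDUFV3 were lower, by differences of -0.33 ± 0.05 and -0.36 ± 0.06.

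Cholesterol genes were higher in 14 of 27 and lower in 4 (median 0.15; -0.09 with equal summed FPKM and -2.17 with spike-in scaling). The enzyme FDFT1 (0.36 ± 0.05) was higher (-2.12 with spike-in scaling), and INSIG1, a brake on the pathway (-0.55 ± 0.06), was lower. Of 392 tested ZNF zinc finger genes, 66 were higher and 125 lower (median -0.07). ZNF263 and ZNF622 were among those higher (0.99 ± 0.05 and 0.55 ± 0.05, and -1.40 and -1.85 with spike-in scaling). ZNF146 and ZNF3 were among those lower (-0.92 ± 0.05 and -0.47 ± 0.04). Among blood cell genes 2 of 6 tested were higher and 0 lower (22 listed), and their summed level was 39.0 to 44.9 FPKM with THZ1, 27.2 to 28.4 FPKM with THZ531 and 29.7 to 32.8 FPKM with DMSO. GATA2 was among those higher, at 25.1 ± 2.68 FPKM with THZ1 and 13.6 ± 0.764 FPKM with THZ531 (0.83 ± 0.07; -1.50 with spike-in scaling). Among epithelial and fibroblast genes 3 of 8 tested were higher and 1 lower (18 listed), and their summed level was 580 to 595 FPKM with THZ1, 443 to 462 FPKM with THZ531 and 510 to 577 FPKM with DMSO. VIM (0.39 ± 0.04; -2.10 with spike-in scaling) and FN1 (0.60 ± 0.06; -1.62 with spike-in scaling) were the higher ones named. The part of these genes in the other differences was not tested.

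**Figure D4:**
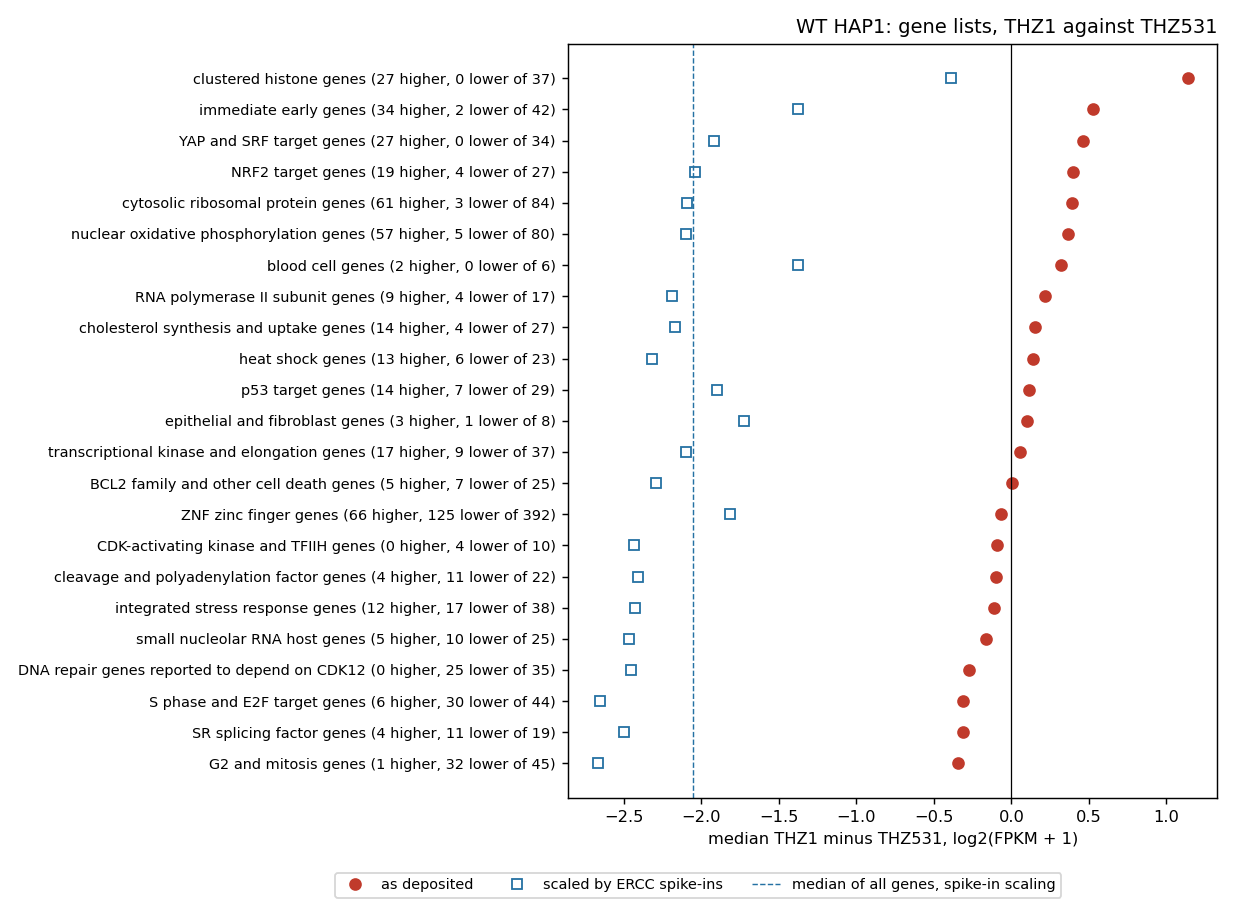
Each row of the plot of gene lists gives the median THZ1 minus THZ531 difference over the tested members of a list, in log2(FPKM + 1), as deposited (filled circles) and after spike-in scaling (open squares), with the members called higher and lower in brackets. As deposited the medians run from -0.35 for G2 and mitosis genes to 1.14 for clustered histone genes, and after spike-in scaling every list median lies below 0, with the dashed line at the median of all genes, -2.05.

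Among the largest rises, short RNAs and rows holding an exact 0 being left out, were several transcripts that share sequence with others. NME1-NME2 (3.24 ± 0.27) and RPL36A-HNRNPH2 (2.87 ± 0.78) are read-through transcripts that share exons with their parent genes, SLC7A5P1 (2.43 ± 0.23) is a pseudogene copy of SLC7A5, and SNAR-G1 (2.38 ± 0.58) is a small RNA with many copies, so the split of reads makes all 4 uncertain. With spike-in scaling NME1-NME2 stood at 0.85, still called, RPL36A-HNRNPH2 at 0.65 and SLC7A5P1 at 0.34, neither called (limma adjusted p 0.391 and 0.19), and SNAR-G1 at -0.10. SPARCL1, a secreted matrix protein, had 36.9, 38.9 and 44.6 FPKM with THZ1, against 4.02, 3.78 and 3.89 FPKM with THZ531 and a mean of 3.34 FPKM with DMSO. Its difference of 3.06 ± 0.08 (limma adjusted p 1.16e-23) stayed a called rise with spike-in scaling, at 0.77. DLK1, a membrane protein of the Notch ligand family, had 10.9, 9.17 and 6.59 FPKM with THZ1, against 1.09, 1.01 and 0.697 FPKM with THZ531 (2.34 ± 0.13, limma adjusted p 1.18e-15; 0.48 with spike-in scaling). Both genes were near the DMSO level with THZ531 and about 10.3-fold and 9.53-fold higher with THZ1 than with THZ531 by their mean FPKM. A2M, a broad protease inhibitor, had 12.5, 12.7 and 12.1 FPKM with THZ1, against 1.76, 1.90 and 1.84 FPKM with THZ531 (2.25 ± 0.05, limma adjusted p 2.28e-26; 0.20 with spike-in scaling).

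The largest falls were RPS10-NUDT3, SNHG12, LOC103021295, APELA, ELFN1-AS1, DACH1, RPL22L1 and RABGGTB. RPS10-NUDT3, a read-through transcript, rests on a library near 0: it had 0.00271, 4.88 and 5.77 FPKM with THZ1, against 5.95, 14.7 and 12.7 FPKM with THZ531 (-1.74 ± 0.61). Its value was -0.86 without replicate 1 of THZ1 (limma adjusted p 0.215), and its call was also lost without replicate 2 of THZ531 (0.0583). DACH1, a transcriptional repressor of development, had 2.02, 2.15 and 2.38 FPKM with THZ1, against 7.68, 7.87 and 7.43 FPKM with THZ531 and a mean of 7.12 FPKM with DMSO (-1.44 ± 0.06, limma adjusted p 1.12e-18). APELA, a hormone of the apelin receptor, averaged 1.09 ± 0.0974 FPKM with THZ1 and 5.14 ± 0.756 FPKM with THZ531 (-1.55 ± 0.10). RABGGTB, a subunit of the enzyme that prenylates Rab proteins, had 31.7, 34.1 and 31.4 FPKM with THZ1, against 89.2, 87.7 and 88.9 FPKM with THZ531 and a mean of 107 FPKM with DMSO (-1.42 ± 0.06, limma adjusted p 2.04e-18). For DACH1 and APELA the THZ531 level was near that of DMSO (differences of 0.10 and -0.02, neither called), and for RABGGTB it was lower (-0.27, called, and -0.20 with spike-in scaling, not called).

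The difference varied weakly with gene properties, given here across 12143 genes (94.7% of those tested) that share the same libraries. Spearman's rho was 0.18 with the GC content of the longest transcript and -0.06 with the span of the gene. The WT differences from DMSO varied more with these properties, above all those of THZ531. With GC content rho was -0.101 for THZ1 against DMSO and -0.46 for THZ531 against DMSO. With gene span it was 0.161 for THZ1 and 0.385 for THZ531, except that for THZ1 the value with GC content was smaller in size than 0.18. Of the 2429 genes with the lowest GC content, 19% were higher and 42.4% lower with THZ1, and of the 2429 with the highest 35.1% were higher and 22.4% lower. Of the 2429 shortest genes (up to 9.29 kb) 33.1% were higher and 24.2% lower, and of the 2429 longest genes (from 93.3 kb) 29.1% were higher and 33.4% lower. Removing the trends with GC content and length gave 7968 calls, 6831 of them among the 7840. That fit held only the 12143 genes with these values, so some of the 7840 may not have been in it. The part of GC content in the calls cannot be told from these counts.

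Set side by side against the DMSO libraries, which both comparisons share, THZ1 gave 8816 calls (68.8%) with 256 at least 2-fold higher (2%) and 295 at least 2-fold lower (2.3%), and THZ531 gave 6006 calls (46.9%) with 13 at least 2-fold higher (0.101%) and 46 at least 2-fold lower (0.359%). With spike-in scaling THZ1 gave 32 higher and 12415 lower, and THZ531 3306 calls, 1861 higher and 1445 lower. HIST1H2BK differed from DMSO by 3.48 with THZ1 and 1.58 with THZ531, and with spike-in scaling by 1.09 with THZ1 and 1.66 with THZ531. HEXIM1 differed by 1.52 with THZ1 and 0.53 with THZ531, which with spike-in scaling became -0.72 with THZ1 and 0.62 with THZ531. CTGF differed by 2.09 with THZ1 and 0.59 with THZ531, and by -0.26 with THZ1 and 0.67 with THZ531 with spike-in scaling. For some genes, TLCD1 and LMF2 among them, THZ531 was, as deposited, the group farther from DMSO. TLCD1, a regulator of membrane lipids, had 8.81, 10.5 and 9.16 FPKM with THZ1, against 3.43, 3.47 and 2.52 FPKM with THZ531 and a mean of 10.8 FPKM with DMSO. LMF2, of the lipase maturation factor family, averaged 17.7 ± 1.59 FPKM with THZ1, 8.99 ± 0.0974 FPKM with THZ531 and 19.7 FPKM with DMSO. TLCD1 and LMF2 differed from DMSO by -1.51 and -1.05 with THZ531, both called, and by -0.16 and -0.15 with THZ1, neither called. With spike-in scaling THZ1 was the farther group, at -2.24 for TLCD1 and -2.38 for LMF2 against -1.54 and -1.01 with THZ531, and THZ1 minus THZ531 was -0.71 for TLCD1 and -1.37 for LMF2.

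In C312S cells the same comparison gave 9599 calls (74.9%), 4982 higher with THZ1 and 4617 lower. This split too depends on the scaling, with 1410 higher and 8707 lower with equal summed FPKM and 35 higher and 12342 lower with spike-in scaling, where the median gene was at -1.46. Summed FPKM was 852300 ± 52900 for C312S THZ1, 567700 ± 6210 for C312S THZ531 and 794400 ± 15200 for C312S DMSO, and the 4 other C312S groups lay between 556800 and 591100. The THZ1 and DMSO libraries of C312S were thus both far above the THZ531 libraries. In C312S the THZ1 minus THZ531 difference correlated with GC content at rho -0.507 across genes. The part of these in the C312S values was not tested. Relative to the genes, the C312S spike-in level was 0.89, 0.84 and 1.18 with THZ1, against -1.0, -0.57 and -0.84 with THZ531 and 0.83, 0.59 and 0.83 with DMSO. THZ1 exceeded THZ531 by 1.77 log2 units (two-sided exact permutation p 0.1), and the DMSO libraries lay near the THZ1 level, whereas in WT they lay at the THZ531 level. The test of the difference between lines, WT minus C312S, called 8937 genes (69.7%), 4350 with a larger value in WT and 4587 with a smaller one. With equal summed FPKM 6211 were larger in WT and 2601 smaller, and with spike-in scaling 605 were larger and 6649 smaller.

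Several histone and early genes rose in both lines as deposited. ID2 averaged 74.9 ± 7.42 FPKM with THZ1 and 14.1 ± 1.89 FPKM with THZ531 in C312S, a difference of 2.34 that was not told from that in WT (-0.07, 95% interval -0.32 to 0.17). That holds as deposited: WT minus C312S for ID2 was called with equal summed FPKM (0.26, limma adjusted p 0.0304) and after scaling by the spike-ins (-0.73). HIST2H2BE averaged 10.3 ± 0.366 FPKM with THZ1 and 1.63 ± 0.173 FPKM with THZ531 in C312S (2.10), and WT minus C312S was -0.03 (95% interval -0.26 to 0.20), but it was called at 0.27 with equal summed FPKM (limma adjusted p 0.0385) and at -0.79 after scaling by the spike-ins. HIST1H2BK differed by 2.60 in C312S, more than in WT (-0.70 ± 0.11, limma adjusted p 1.19e-06), and so did HIST1H2AC and RGS2, a regulator of G protein signalling (2.67 and 2.78 in C312S). These values are of deposited FPKM, and with spike-in scaling the WT differences of all 5 genes were negative (-0.94 for RGS2), while those in C312S were positive, between 0.56 for ID2 and 1.04 for RGS2. BRCA1 was lower with THZ1 in both lines (-0.52 in WT and -0.68 in C312S), and WT minus C312S was 0.16 (limma adjusted p 0.0557), or 0.45 and called with equal summed FPKM. The repair genes as a list were divided in C312S, with 15 higher and 12 lower of 35 (38.9% and 36% of all genes) and a median of 0.04. With spike-in scaling their C312S median was -1.48, and with equal summed FPKM -0.47. As deposited, WT minus C312S was called higher for 6 and lower for 22 of them (33.9% and 35.8% of all genes).

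Other genes differed between the lines. CDKN1A averaged 2.85 ± 0.263 FPKM with THZ1 and 4.22 ± 0.420 FPKM with THZ531 in C312S, lower with THZ1 (-0.44), and WT minus C312S was 2.31 ± 0.14 (limma adjusted p 3.54e-15). POLR2A averaged 51.0 ± 1.46 FPKM with THZ1 and 64.6 ± 5.39 FPKM with THZ531 in C312S (-0.33), and WT minus C312S was 1.70 ± 0.11. A2M and DLK1, raised in WT, were under 1 FPKM in either group of C312S libraries, at 0.153 FPKM with THZ1 and 0.0871 FPKM with THZ531 for A2M. IER3 averaged 8.86 ± 0.0637 FPKM with THZ1 and 3.78 ± 0.368 FPKM with THZ531 in C312S (1.05, and -0.51 with spike-in scaling), and WT minus C312S was 1.33 ± 0.15.

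The G2 and mitosis list, as deposited, had 32 higher and 11 lower in C312S (38.9% and 36% of all genes), with a median of 0.35, where WT had 1 higher and 32 lower. With spike-in scaling all 45 were lower in C312S as in WT, with a C312S median of -1.44, and with equal summed FPKM it was -0.22. The S phase and E2F list was divided in C312S as deposited, with 21 higher and 19 lower and a median of 0.02. With spike-in scaling all 44 were lower in C312S, with a median of -1.80, and with equal summed FPKM the median was -0.56. BUB1B averaged 121 ± 0.714 FPKM with THZ1 and 86.7 ± 2.13 FPKM with THZ531 in C312S (0.47), with a mean of 95.03 FPKM in C312S DMSO, and WT minus C312S was -1.17 ± 0.05 (limma adjusted p 8.97e-18). POLE2 averaged 41.9 ± 1.55 FPKM with THZ1 and 24.7 ± 1.96 FPKM with THZ531 in C312S (0.74), with a mean of 43.2 FPKM in C312S DMSO, near the THZ1 level, and WT minus C312S was -1.84 ± 0.11. CDK7 itself averaged 75.8 ± 0.741 FPKM with THZ1 and 39.8 ± 1.75 FPKM with THZ531 in C312S (0.91), with a mean of 60.5 FPKM in C312S DMSO, and WT minus C312S was -1.26 ± 0.08. With spike-in scaling the C312S differences of BUB1B, POLE2 and CDK7 were -1.35, -1.04 and -0.89. PLK4 was lower with THZ1 in C312S too (-0.14). E2F1 was lower with THZ1 in C312S too, at 10.98 ± 1.02 FPKM with THZ1 and 23.9 ± 0.420 FPKM with THZ531 (-1.06), with WT minus C312S at 0.29 ± 0.10. After spike-in scaling the median of all genes for WT minus C312S was -0.43, and with equal summed FPKM it was 0.24.

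**Figure D5:**
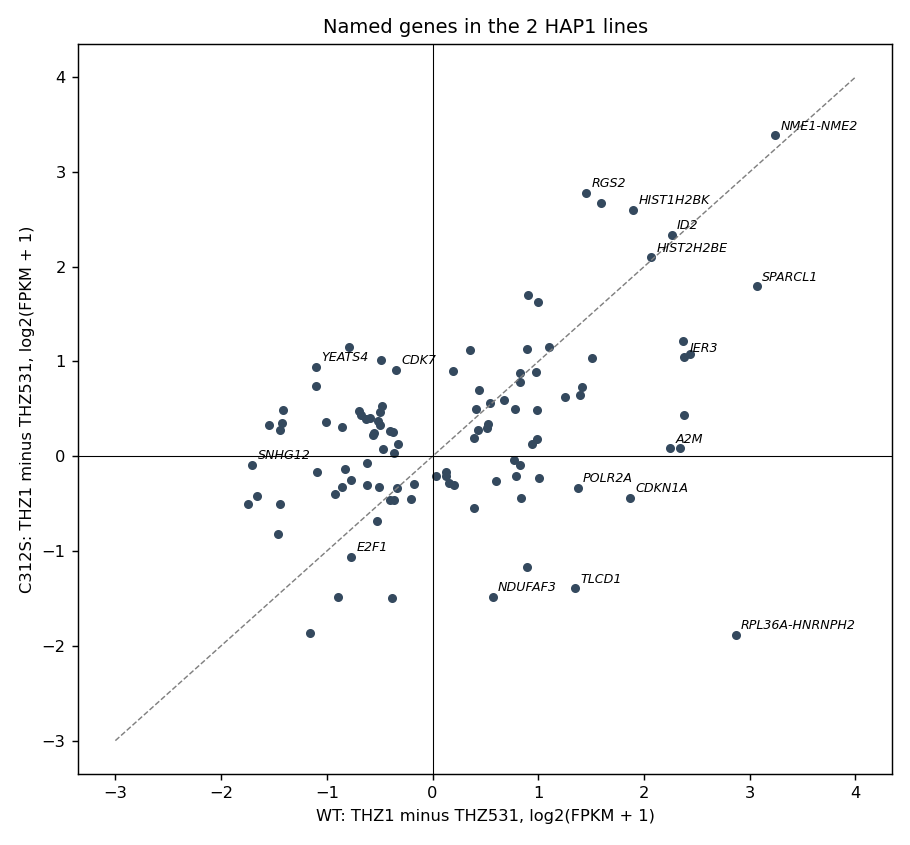
Each point in the plot of both lines is a named gene, with its THZ1 minus THZ531 difference in WT on the horizontal axis and in C312S on the vertical axis, both in log2(FPKM + 1) as deposited; the dashed line marks equal differences. ID2 and HIST2H2BE lie near the line, CDKN1A (1.87 in WT and -0.44 in C312S) and TLCD1 (1.35 in WT and -1.39 in C312S) lie below it, and YEATS4 (-1.10 in WT and 0.95 in C312S) lies above it. With spike-in scaling the WT differences of ID2, HIST2H2BE, CDKN1A and TLCD1 are negative, as is the C312S difference of YEATS4 (-0.86).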

How the data were processed

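The deposited table holds FPKM per gene for 42 poly(A)-selected libraries. HISAT2 2.0.4, Cufflinks 2.2.1, Cuffnorm and the build hg19 are named, without roles or order, per the submitters' processing notes. These notes do not name the normalization setting behind the deposited FPKM. The values are centred near the median gene, which differed by -0.005 between THZ1 and THZ531 in WT and by 0.016 in C312S. Summed FPKM was not equal between libraries. A stranded kit is named per the labels' protocols, but whether counting used strand is not given. Its 26320 rows comprise 26228 genes and 92 ERCC spike-ins. It holds no read counts, so no count model was used, and depth was compared only relatively, from the smallest steps of low values. No interval for counting error can therefore be given.

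The 12816 genes that reached 1 FPKM in 3 or more libraries entered a limma (3.58.1, R 4.3.3) fit on log2(FPKM + 1): 14 group means over all 42 libraries, which share an estimate of the spread, a trend on expression, and Benjamini-Hochberg adjustment within each comparison at 0.05. The fit was tested on simulated data. Exact 0s can be failed estimates (EEF1A1 is listed at 0 in WT THZ531 replicate 2). Symbols are as the table gives them; GC content and lengths come from the GENCODE annotation by symbol. Plots were drawn with Python 3.11.15 and matplotlib 3.10.9.

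Members and the 24 gene lists were chosen with earlier results of these data known. The list of mitochondrially encoded genes has 0 members in the table. For WT the text names the 8 largest rises and falls among called genes with libraries apart, a mean of at least 5 FPKM in either group, no exact 0 in the 6 libraries and no short RNA symbol, the 2 members of each list with the smallest p in either direction, and CDK7, CDK12, CDK13, CCNK, POLR2A, CDKN1A, MYC, MCL1, E2F1, HEXIM1 and BRCA1. For C312S and the difference between lines it adds the 4 largest in each direction. Some genes that this rule selects are not reported here. Alternatives were the pseudocount (0.1), no filter, spike-in, summed-FPKM and median-ratio scaling, fewer groups in the fit, no trend, a replicate block, each library left out, and, added after the data were seen, GC and length trends removed and list members with an exact 0 left out.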

Additional observations from a re-analysis of the deposited data

Results flagged for a closer look

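Of the 105 genes named, 87 differed between the lines in the THZ1 minus THZ531 difference by limma's test of the interaction (adjusted p under 0.05). Some of the genes were named for a large difference between the lines, so this share is a description and is not set against that of all genes. Of the 87, 40 had a larger value in WT than in C312S and 47 a smaller one. Values below are WT minus C312S in log2(FPKM + 1) as deposited. Summed FPKM was 852300 ± 52900 for C312S THZ1 and 567700 ± 6210 for C312S THZ531 (794400 ± 15200 for C312S DMSO), and the part of this in these differences was not tested.

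A difference of at least 1 in favour of WT was found for RPL36A-HNRNPH2 (4.75), TLCD1 (2.74), CDKN1A (2.31), DLK1 (2.25), A2M (2.16), LMF2 (2.07), NDUFAF3 (2.05), SNAR-G1 (1.94), POLR2A (1.70), SLC7A5P1 (1.35), IER3 (1.33), SPARCL1 (1.27), GATA2 (1.27), HSPA1A (1.23), HIST1H2BO (1.15) and ASF1B (1.11). RPL36A-HNRNPH2, a read-through transcript, varied widely between libraries of a group, with 14.4, 1.20 and 1.43 FPKM in the THZ531 libraries of WT. Smaller positive differences were those of CYR61 (1.0), VIM (0.94), BRD2 (0.92), FN1 (0.86), SLC3A2 (0.81), BAG3 (0.81), ZNF263 (0.80), KLF10 (0.75), FDXR (0.68), NQO1 (0.63), EMILIN3 (0.58), SRSF9 (0.50), HEXIM1 (0.50), CTGF (0.47), CDK13 (0.44), MCL1 (0.34), SRSF4 (0.29), E2F1 (0.29), RPLP2 (0.28), ABCC1 (0.25), CCNK (0.24), TYMS (0.22), MYC (0.18) and BCL2L1 (0.15). With spike-in scaling the sign turned for some of these, whose values stand with the scaling results.

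A difference of at least 1 in the other direction was found for YEATS4 (-2.05), LOC100506790 (-1.94), SOX2-OT (-1.90), APELA (-1.88), POLE2 (-1.84), RABGGTB (-1.78), RPL22L1 (-1.72), SNHG12 (-1.62), HSPA8 (-1.51), GINS1 (-1.38), RGS2 (-1.33), CDK7 (-1.26), LOC103021295 (-1.24), BUB1B (-1.17), RPL7L1 (-1.17), SRPK1 (-1.11), HIST1H2AC (-1.07), MDM2 (-1.02) and BID (-1.0). In this group the cell cycle genes GINS1, POLE2 and BUB1B and the kinase CDK7 were, as deposited, lower with THZ1 in WT and higher with THZ1 in C312S. LOC100506790 rests on replicate 3 of THZ1 in WT, since its WT difference of -0.79 was -0.44 without that library (adjusted p 0.156). Smaller negative differences were those of LARP7 (-0.99), CFLAR (-0.97), DACH1 (-0.94), SNHG16 (-0.92), POLR2H (-0.89), GTF2H3 (-0.82), INSIG1 (-0.80), ATF3 (-0.80), CPSF2 (-0.79), FDFT1 (-0.76), KIF23 (-0.71), HIST1H2BK (-0.70), PLK4 (-0.70), RTF1 (-0.66), ELFN1-AS1 (-0.64), SNHG15 (-0.63), HSPE1 (-0.63), ZNF3 (-0.55), ATF5 (-0.55), XRCC2 (-0.53), ZNF146 (-0.53), SRSF1 (-0.51), ATP5G2 (-0.46), AEN (-0.40), AARS (-0.32), CLP1 (-0.26), COX6C (-0.24) and SSU72 (-0.18).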

How the results depend on the processing

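The number of genes called between THZ1 and THZ531 in WT stayed within 1.5 times the 7840 reported under all settings run but spike-in scaling, which gave 12460, and was 7256 to 7405 when each of the 6 libraries was left out in turn. It was 9167 to 9357 in C312S and 8597 to 8881 for the difference between lines when a library of theirs was left out, against DMSO 8404 to 8479 for THZ1 and 4941 to 5546 for THZ531, and the spike-in difference was 2.43 to 2.58. With spike-in scaling THZ531 against DMSO gave 3306 calls. A similar count did not mean the same genes. Of the 7840 calls between THZ1 and THZ531 in WT, equal summed FPKM kept 5950, with 5872 in the same direction. Spike-in scaling kept 7747, with 3942 in the same direction. The libraries were not treated as paired by replicate number. Deviations of same-numbered libraries correlated at r of 0.064, 0.065 and -0.064, and those of differently numbered libraries between -0.106 and 0.045. With 3 libraries per group these values cannot exclude a pairing. A replicate block gave 7815 calls in WT (7780 of the 7840), 9561 in C312S and 8905 for the difference. Against DMSO it gave 8805 calls for THZ1 and 5987 for THZ531.

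Spike-in scaling, which by its construction lowers the THZ1 libraries, turned the direction of 48 of the 105 named genes in WT, left 53 on the same side and ended 4 calls, and equal summed FPKM turned 6 and ended 1 call. With spike-in scaling the WT difference turned negative for SNAR-G1 (-0.10), TYMS (-1.97), KIF23 (-2.27), CDKN1A (-0.26), FDXR (-0.93), KLF10 (-0.87), ID2 (-0.17), CTGF (-0.93), CYR61 (-1.65), BCL2L1 (-1.99), CASP8 (-1.83), SLC3A2 (-1.71), ATF3 (-1.44), BAG3 (-1.45), HSPA1A (-1.37), NQO1 (-1.17), FTL (-1.52), FDFT1 (-2.12), HIST2H2BE (-0.15), HIST1H2BK (-0.58), RPLP2 (-1.72), RPS19 (-1.68), ATP5B (-1.67), COX6C (-1.58), BRD2 (-1.64), HEXIM1 (-1.34), POLR2A (-1.11), POLR2G (-1.78), PPP1CA (-2.06), CLP1 (-1.93), SRSF9 (-2.29), SRSF4 (-2.32), SNHG15 (-1.44), SNHG9 (-1.39), ZNF263 (-1.40), ZNF622 (-1.85), GATA2 (-1.50), VIM (-2.10), FN1 (-1.62), CDK13 (-2.07), CCNK (-2.37), MYC (-1.96), MCL1 (-2.32), RGS2 (-0.94), HIST1H2AC (-0.78), NDUFAF3 (-1.77), TLCD1 (-0.71) and LMF2 (-1.37). With equal summed FPKM it did so for KIF23 (-0.047), SRSF9 (-0.044), SRSF4 (-0.12), CDK13 (-0.074), CCNK (-0.20) and MCL1 (-0.12). List medians that turned with spike-in scaling were those of p53 target (-1.90), immediate early (-1.38), YAP and SRF target (-1.92), BCL2 family and other cell death (-2.29), heat shock (-2.32), NRF2 target (-2.05), cholesterol synthesis and uptake (-2.17), clustered histone (-0.39), cytosolic ribosomal protein (-2.09), nuclear oxidative phosphorylation (-2.10), transcriptional kinase and elongation (-2.10), RNA polymerase II subunit (-2.19), blood cell (-1.37) and epithelial and fibroblast (-1.72), and with equal summed FPKM those of p53 target (-0.11), BCL2 family and other cell death (-0.20), heat shock (-0.11), cholesterol synthesis and uptake (-0.086), transcriptional kinase and elongation (-0.18), RNA polymerase II subunit (-0.026) and epithelial and fibroblast (-0.11). The median of the BCL2 family list, near 0, was -0.029 with GC and length trends removed and between -0.038 and 0.012 when each library was left out, with a negative sign without THZ1 replicate 2, THZ531 replicate 1 and THZ531 replicate 3.

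In C312S, spike-in scaling turned SLC7A5P1 (-0.26), IER3 (-0.51), SNAR-G1 (-1.39), DLK1 (-0.49), APELA (-1.26), RPL22L1 (-1.54), RABGGTB (-1.47), YEATS4 (-0.86), LOC100506790 (-0.52) and SOX2-OT (-1.15), equal summed FPKM turned APELA (-0.18), RPL22L1 (-0.30), RABGGTB (-0.22) and SOX2-OT (-0.036), and removing GC and length trends turned APELA (-0.23), RPL22L1 (-0.20) and RABGGTB (-0.059). The difference between lines turned with spike-in scaling for TYMS (-0.44), CTGF (-0.26), BCL2L1 (-0.47), NQO1 (-0.0021), FTL (-0.57), NFE2L2 (-0.59), ABCC1 (-0.32), RPLP2 (-0.38), ATP5B (-0.62), NDUFV3 (-0.47), HEXIM1 (-0.15), POLR2G (-0.56), CPSF7 (-0.55), SRSF9 (-0.15), SRSF4 (-0.35), CDK12 (-0.49), CDK13 (-0.15), CCNK (-0.38), MYC (-0.47), MCL1 (-0.31) and E2F1 (-0.21), with equal summed FPKM for ID2 (0.26), AARS (0.013), HIST2H2BE (0.27), RPS19 (0.29), COX6C (0.10), SSU72 (0.15), PPP1CA (0.25), CLP1 (0.066) and ZNF622 (0.31), and with GC and length trends removed for BCL2L1 (-0.063), ABCC1 (-0.24), COX6C (0.47), E2F1 (-0.14) and EMILIN3 (-0.026); for the last group the cause was not tested. Depth limits low genes most in the THZ1 libraries, which were the shallowest of the 6. Doses, and whether libraries came from separate cultures, are not in the labels, and 3 libraries per group let no exact permutation test pass below 0.1.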

Other observations

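Levels in the WT groups given YKL or the combination are given as deposited FPKM for a few of the genes named. No comparison above sets these groups against others, but their libraries enter the shared estimate of the spread. TLCD1 averaged 43.5 FPKM with YKL 500 nM and 40.4 FPKM with YKL 2 uM, and 21.5 and 20.9 FPKM with the combination at 500 nM and 2 uM. CDKN1A averaged 13.6 FPKM with YKL 500 nM and 11.7 FPKM with YKL 2 uM, and HIST1H2BK 178 FPKM with YKL 500 nM and 199.7 FPKM with YKL 2 uM. IER3 averaged 5.85 FPKM with YKL 500 nM and 5.81 FPKM with YKL 2 uM, and SPARCL1 6.63 FPKM with YKL 500 nM and 6.91 FPKM with YKL 2 uM. Values of THZ1 and THZ531 libraries for these genes stand in the results above; no test was made between these groups.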
